A study of Mus musculus with 12 samples.

Results

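The nuclear-coded subunits of the mitochondrial respiratory chain and ATP synthase were examined in mouse embryonic stem cells carrying a truncating Tin2 mutation. Members were the table rows whose symbol starts with Nduf and a subunit letter and number, Sdha to Sdhd, Uqcr, Cox4 to Cox8 or Atp5, without pseudogene symbols. They also had to reach a mean of 5 CPM over 12 libraries, where CPM is the read count scaled to the library's total. Of 31641 gene rows, 89 matched by name, 5 were pseudogene symbols, and 78 of the other 84 passed the level minimum. By complex these were 34 genes of complex I, 4 of complex II, 8 of complex III, 15 of complex IV and 17 of complex V.

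RNA-seq had been run on 4 lines of embryonic stem cells derived from C57BL/6 blastocysts, with WT-1 and WT-2 as wild type and Mut-1 and Mut-2 of the genotype Tin2 S341X. Tin2, encoded by Tinf2, is a subunit of the shelterin complex that caps telomeres. Cells of every line grew on mouse embryonic fibroblast (MEF) feeders in medium with serum and LIF, a cytokine that keeps stem cells undifferentiated. Each line gave 3 libraries of total RNA, which the design text calls technical replicates, so a genotype was represented by 2 independent lines. The labels do not say how the mutation was made or whether a line was 1 clone.

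Oxidative phosphorylation passes electrons from NADH through complex I, or from succinate through complex II, to ubiquinone, then through complex III and cytochrome c to complex IV, where oxygen is reduced. Complexes I, III and IV pump protons across the inner mitochondrial membrane, and complex V, the ATP synthase, uses their return to make ATP. A few hydrophobic subunits are coded in the mitochondrial genome and the rest in the nucleus, and mouse embryonic stem cells in serum and LIF are known to use glycolysis beside respiration.

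Many promoters of such subunits are known targets of NRF1, of ETS-family factors of the GABP type and of YY1. The stretches below show a match to each in genes of complexes I to V. They lie upstream of the RefSeq start site (GRCm38.p6) and outside GENCODE M21 exons. Capitals mark a match to the NRF1 motif (GCGCA, any base, GCGC, or its reverse complement), to the ETS letters CCGGAAG or their reverse complement CTTCCGG, or to the YY1 motif (AA, any base, ATGGC, or its reverse complement).
Ndufa11, chr17:56717686-56717761, plus strand, NRF1: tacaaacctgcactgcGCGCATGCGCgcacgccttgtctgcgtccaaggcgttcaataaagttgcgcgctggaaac
Ndufs8, chr19:3912875-3912974, minus strand, YY1: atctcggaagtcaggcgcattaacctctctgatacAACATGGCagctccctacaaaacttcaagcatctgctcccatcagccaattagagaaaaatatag
Sdha, chr13:74350281-74350308, minus strand, NRF1: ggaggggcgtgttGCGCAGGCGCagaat
Sdhd, chr9:50603850-50603909, minus strand, ETS: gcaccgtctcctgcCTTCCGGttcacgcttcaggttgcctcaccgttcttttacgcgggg
Uqcrh, chr4:116075072-116075170, minus strand, ETS: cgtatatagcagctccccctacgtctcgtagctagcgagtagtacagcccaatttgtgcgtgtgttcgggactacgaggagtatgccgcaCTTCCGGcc
Cox6a1, chr5:115348982-115349128, minus strand, NRF1: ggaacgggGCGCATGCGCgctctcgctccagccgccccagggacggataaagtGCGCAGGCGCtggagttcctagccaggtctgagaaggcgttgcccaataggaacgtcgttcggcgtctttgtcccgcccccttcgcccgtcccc
Atp5e, chr2:174464132-174464231, minus strand, ETS: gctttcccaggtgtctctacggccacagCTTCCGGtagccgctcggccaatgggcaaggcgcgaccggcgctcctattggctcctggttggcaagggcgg

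A promoter entry, from 250 bases before to 50 after the start, was found for 66 of the 78 members. With both strands searched, the NRF1 letters occurred in 17 of these 66 genes (25.8%), against 5.2% of 27025 genes with an entry and 7.2% of protein-coding genes. The ETS letters occurred in 16 (24.2%, against 9.9% and 12.9%) and the YY1 letters in 18 (27.3%, against 7.0% and 7.5%). At least 1 of the 3 motifs was present in 44 of the 66 (66.7%, against 19.4% and 23.9%), and no matches of different motifs overlapped. The YY1 matches often lay just inside the gene, with 11 of the 18 starting in the 50 bases after the start (61.1%, against 42.5% of the protein-coding genes with this match). The letters TATAAA at 40 to 11 bases before the start were in 0 of 66, against 3.15% of protein-coding genes, and the median GC content was 57.8%, against 56.3%. A match is a string of letters, and no binding was measured.

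Library totals ran from 14766477 to 17891894 counts, and the members took 1.05% to 1.24% of them. Tinf2, on chromosome 14, was at 69.2, 64.9 and 57.7 CPM in WT-1, 64.0, 58.8 and 60.6 in WT-2, 29.8, 25.2 and 20.1 in Mut-1, and 30.1, 27.5 and 19.7 in Mut-2. All 6 mutant libraries were below all 6 wild-type libraries, so the targeted transcript matched the labels. On line totals, where the counts of a line's libraries are summed, the log2 fold change of Tinf2 was -1.30 ± 0.11 (SE; edgeR quasi-likelihood test, Benjamini-Hochberg adjusted p = 0.0652). All 17 stem cell markers were detected in every library, Pou5f1 at 241 to 385 CPM and Nanog at 535 to 1001 CPM. Fibroblast and matrix markers were detected too, 34 of 35 in the table and none at 0 in any library (Col1a1 at 715 to 1886 CPM), and their summed share of the counts was 0.925% to 1.23% in the wild-type libraries. In Mut-1 that feeder share was 2.09%, 1.14% and 0.994% in replicates 1 to 3, and in Mut-2 it was 1.84%, 1.92% and 1.17%. WT-1 replicates 1 and 2 were close to identical, with a chi-square of 1.62 per degree of freedom while the remaining within-line pairs gave 10.9 to 38.4. In these bulk cultures fewer stem cells and less RNA per stem cell cannot be told apart.

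Between the genotypes, no subunit gene passed the test. Summed over the 78 members, the level was 11801 ± 37.1 CPM (SD, n = 2 lines) in the wild type and 11597 ± 102 CPM in the mutants. On line totals 0 of 78 members were called at an adjusted p under 0.05 (edgeR quasi-likelihood test, Benjamini-Hochberg over 18749 genes), and the background was 0%. At an unadjusted p under 0.05 the count was also 0 of 78, against 13.1% of all genes, and the smallest adjusted p of a member was 0.429. With 2 lines against 2 this test called no gene of the table, Tinf2 included, so the lack of a call does not show that a member was equal. DESeq2 on the same totals called 0 members (background 2.6% of the genes it gave an adjusted p). It gave 0 at an unadjusted p under 0.05 (background 6.28% of 31641 rows, low counts included). The 95% interval of each of the 78 members lay inside a 2-fold difference in either direction.

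The estimates nevertheless leaned below 0. The median log2 fold change of the members was -0.07, a ratio of 0.953, against -0.00 for all genes, and 61 of 78 were below 0 against 50.2% of all genes. Without Mut-1 replicate 1 the median was 0.02. Leaving out Mut-1 replicate 1 and Mut-2 replicates 1 and 2, the libraries richest in feeder markers, gave a median of 0.08 with 64 of 78 members above 0, a choice made after seeing the data. The part of the feeder share in the lean was not tested separately from those libraries.

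**Figure D1:**
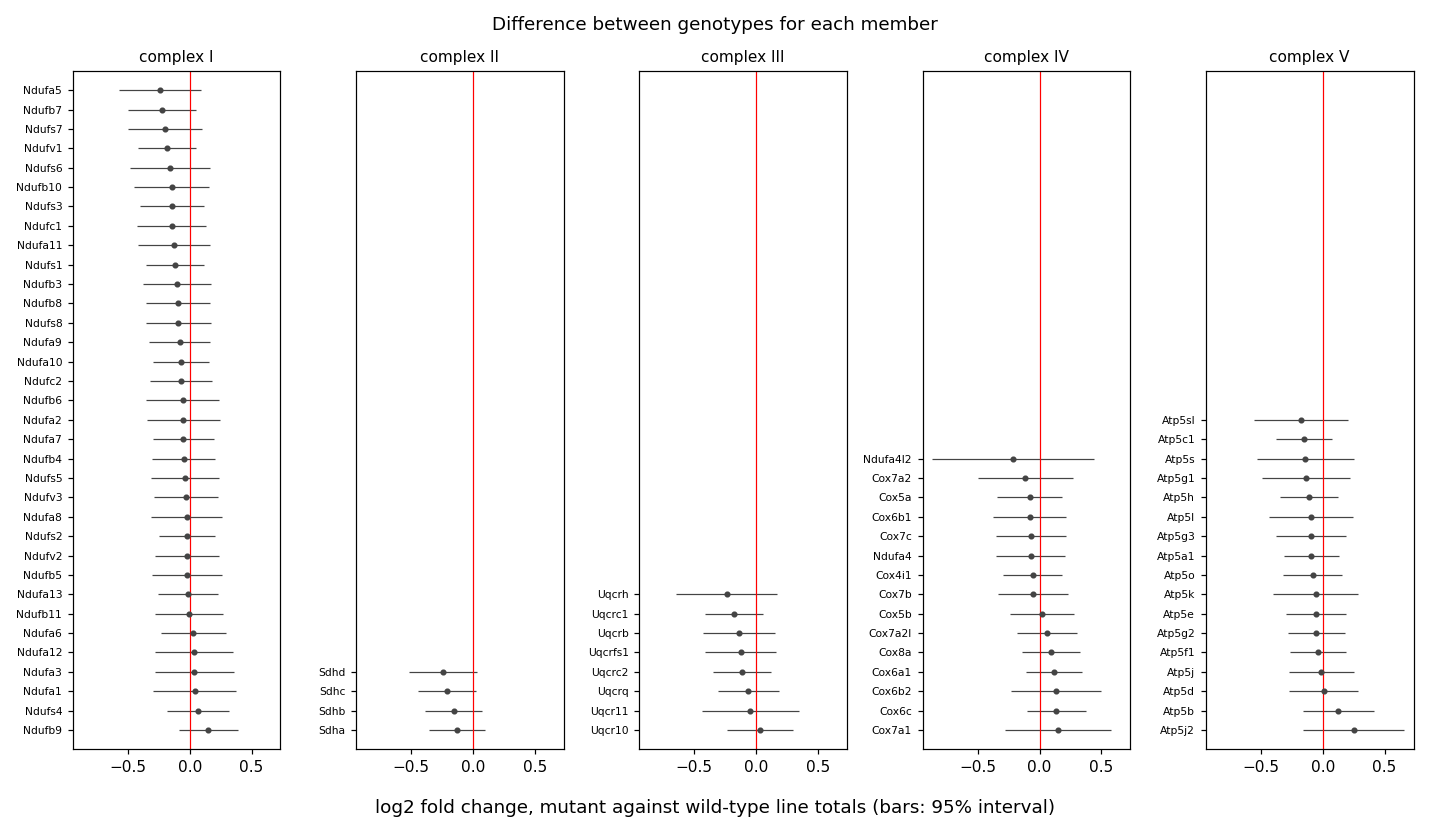
Log2 fold change of each member between the mutant and the wild-type line totals (x axis; points, with bars for the 95% interval), in panels by complex. Every bar crosses 0 and stays inside a 2-fold difference, and the 4 genes of complex II all lie left of 0.

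Complex I, which takes electrons from NADH, is the largest enzyme of the chain. Its 34 members summed to 2333 ± 43.0 CPM in the wild-type lines and 2234 ± 60.5 CPM in the mutant lines (SD, n = 2), with a median log2 fold change of -0.05 and 28 of 34 below 0. The 7 core subunits, which hold the flavin and the iron-sulfur clusters, were all below 0, with a median of -0.12, and the 27 accessory subunits had a median of -0.05.

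Ndufv1, the flavin-binding subunit that oxidizes NADH, stood at 159, 159 and 151 CPM in WT-1, 145, 149.7 and 163 in WT-2, 110.1, 144 and 147 in Mut-1, and 123, 138 and 164 in Mut-2. Its lowest value came from Mut-1 replicate 1 and its highest from Mut-2 replicate 3, so the genotypes overlapped, and its log2 fold change was -0.18 ± 0.10 (edgeR adjusted p = 0.485). Ndufs1, the large iron-sulfur subunit, was at 99.8 ± 3.48 CPM in the wild type and 91.8 ± 1.84 in the mutants. Ndufs7, which carries the iron-sulfur cluster next to the ubiquinone site, was at 58.9 ± 4.81 and 51.3 ± 6.12 CPM.

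Accessory subunits gave both ends of the range in complex I. Ndufa5 had the lowest estimate of all members, -0.24 ± 0.14, with 22.2 ± 2.37 CPM in the wild type and 18.8 ± 0.720 in the mutants, and its libraries ran from 18.6 to 26.4 CPM and from 15.2 to 26.2 CPM. Ndufb7 was at 56.6 ± 3.78 and 48.3 ± 4.05 CPM (-0.23 ± 0.12). Ndufb9 had the highest estimate in the complex, at 90.3 ± 3.44 and 100.3 ± 4.13 CPM (0.15 ± 0.10). None of these differences passed the test, and the libraries of the genotypes overlapped in each.

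Complex II, succinate dehydrogenase, is the only respiratory complex that also belongs to the tricarboxylic acid cycle, and all of its subunits are nuclear. On line totals it gave the lowest median of the 5 complexes, -0.18, while in Mut-1 against WT-1 complex III was lower, at -0.18 against -0.16. All 4 genes of complex II were below 0 in Mut-1 against WT-1 (background 46.9% of genes below 0) and in Mut-2 against WT-2 (50.1%). Summed, the 4 genes reached 690.1 ± 10 CPM in the wild-type lines and 612 ± 19.6 CPM in the mutant lines (SD, n = 2), a ratio of 0.886. By library the sum was 684, 679 and 672 CPM in WT-1, 727, 693 and 669.8 in WT-2, 545, 631 and 639 in Mut-1, and 604, 607 and 667 in Mut-2. All 6 mutant sums lay below all 6 wild-type sums, the nearest being 667 in Mut-2 replicate 3 and 669.8 in WT-2 replicate 3. The number of lines limits this comparison: an exact permutation of 2 lines against 2 cannot give a p below 0.333.

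Sdhc, a membrane anchor on chromosome 1 (171127165 to 171150603, GRCm38, minus strand), was the only member whose 12 libraries did not overlap between the genotypes. It was at 147, 143 and 135 CPM in WT-1, 162, 146 and 135 in WT-2, 113, 131 and 129 in Mut-1, and 129, 128 and 129 in Mut-2. All mutant libraries were therefore lower, a pattern that 1.01% of the 11412 genes at 5 CPM or more showed in this direction and 1.48% in the other. Its log2 fold change on line totals was -0.21 ± 0.10, a ratio of 0.866 (95% interval 0.736 to 1.02; edgeR adjusted p = 0.429). A count of 1 in 78 members is close to the background share.

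Sdhd, the other anchor, was at 153, 153 and 133 CPM in WT-1, 168, 154 and 124 in WT-2, 105, 113 and 127 in Mut-1, and 121, 126 and 167 in Mut-2. Its highest mutant value, from Mut-2 replicate 3, was just under the highest wild-type value, and the estimate was -0.24 ± 0.12 (edgeR adjusted p = 0.434). Sdhb, the iron-sulfur subunit, was at 102.6 ± 0.585 CPM in the wild-type lines and 92.1 ± 0.269 in the mutant lines (-0.16 ± 0.10; edgeR adjusted p = 0.547). Sdha, the flavoprotein that oxidizes succinate, was at 294 ± 3.82 and 268 ± 0.759 CPM (-0.13 ± 0.10; edgeR adjusted p = 0.605). For these 2 genes the lines of a genotype were closer to each other than the genotypes were, but their libraries overlapped. Members of other complexes had this order too, such as Ndufa10 (151 ± 1.68 and 144 ± 0.499 CPM) and Atp5c1 (324 ± 8.69 and 292 ± 2.57 CPM). The share of all genes with this order is not given here. Without the 3 libraries richest in feeder markers the estimates of Sdha, Sdhb, Sdhc and Sdhd were -0.05, -0.10, -0.16 and -0.04, and without Mut-1 replicate 1 alone they were -0.07, -0.11, -0.16 and -0.19.

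**Figure D2:**
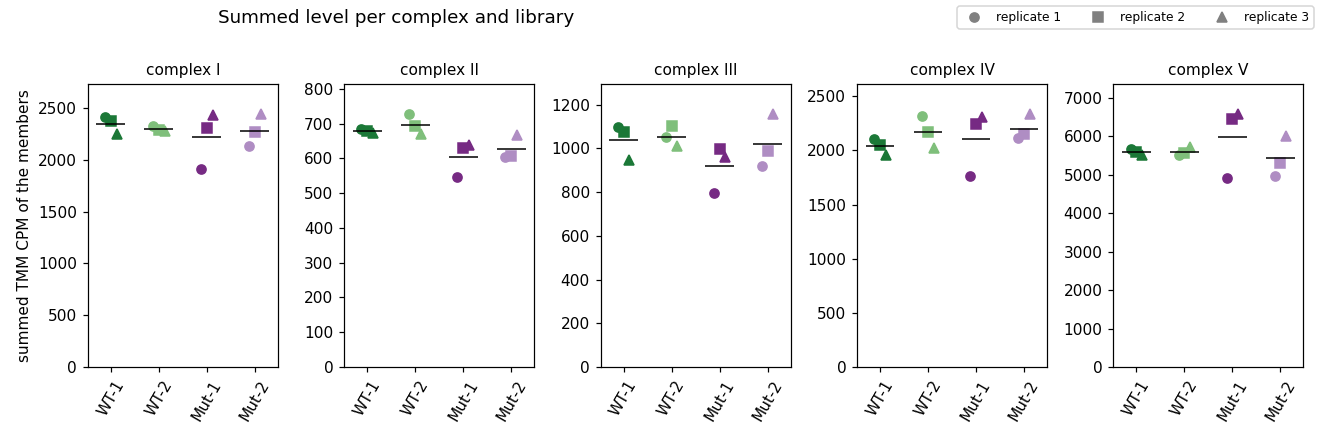
Summed TMM-normalized CPM of the members of each complex (y axis, from 0) in each library, by line on the x axis, with marker shape for the replicate number and a bar for the mean over the libraries. Mut-1 replicate 1 is lowest in all 5 panels, and in complex II the mutant libraries lie at 545 to 667 CPM, below the wild-type libraries at 669.8 to 727.

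Complex III passes electrons from ubiquinol to cytochrome c. Its 8 members summed to 1051 ± 7.41 CPM in the wild-type lines and 961 ± 79.4 CPM in the mutant lines, and 7 of 8 were below 0 (median -0.12). The mutant lines differed from each other more than the wild-type lines did, at 904.8 CPM in Mut-1 and 1017 in Mut-2. Against WT-1, 8 of 8 were below 0 in Mut-1, and against WT-2, 3 of 8 were below 0 in Mut-2.

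Uqcrh, the hinge protein between cytochrome c1 and cytochrome c, had the widest range in the complex. It was at 95.2, 95.2 and 51.2 CPM in WT-1, 93.4, 94.9 and 63.3 in WT-2, 49.0, 64.2 and 58.2 in Mut-1, and 72.5, 73.0 and 108 in Mut-2. Replicate 3 was the lowest library in each wild-type line and the highest in Mut-2, and the line totals did not separate (-0.24 ± 0.18; edgeR adjusted p = 0.6004). Uqcrc1, a core protein, was at 401 ± 1.32 and 354 ± 22.2 CPM (-0.18 ± 0.10; edgeR adjusted p = 0.499). Uqcrfs1, the Rieske iron-sulfur protein that delivers electrons to cytochrome c1, was at 118 ± 9.50 and 108 ± 12.7 CPM.

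Complex IV, cytochrome c oxidase, was balanced between the genotypes. Its 15 members summed to 2113 ± 86.8 and 2135 ± 85.8 CPM, with 8 of 15 below 0 and a median log2 fold change of -0.05. Ndufa4, first named for complex I and now known as a complex IV subunit, was counted here together with its paralog Ndufa4l2. Cox6c, a supernumerary subunit, gave 133 ± 7.18 and 146 ± 4.97 CPM (0.14 ± 0.10), and Ndufa4 gave 141 ± 6.78 and 135 ± 17.0 CPM.

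Several complex IV subunits exist as tissue isoforms, and the lines expressed mainly the ubiquitous ones. To compare isoforms, CPM was divided by the length of the gene's merged exons in kb. Merged exons can be longer than the expressed transcript, so a level per length also depends on the annotation. Cox4i1 made up 97.2% of the Cox4i level per length (median of 12 libraries), Cox6a1 99.9% of Cox6a and Cox8a 99.9% of Cox8. The heart and muscle isoforms Cox6a2 and Cox8b and the testis isoforms Cox7b2 and Cox8c had mean levels of 0.0244 to 0.351 CPM, too few counts for a comparison. These 4 genes, Cox4i2 and Ndufb2 were the 6 rows under the 5 CPM minimum. The gene nearest below the minimum was Cox4i2 at 2.98 CPM, and the nearest above it was Cox7a1 at 6.39 CPM.

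A pair of tissue isoforms was present at measurable levels. Cox6b2, known from testis, was at 77.5, 72.7 and 59.8 CPM in WT-1, 84.3, 55.7 and 64.9 in WT-2, 72.7, 49.96 and 68.7 in Mut-1, and 94.1, 73.5 and 97.2 in Mut-2. It made up 21.6% to 36.5% of the Cox6b level per length (median 29.5%), and the genotypes overlapped (0.13 ± 0.16). Of the spermatogenic markers, Prm1, Prm2, Pgk2, Tnp2, Acrv1 and Odf1 had medians of 0 to 0.0906 CPM. Cyct, the testis cytochrome c, was at 13.02 to 27.2 CPM, Tekt1 at 1.85 to 3.80 CPM and Ldhc at 0.277 to 1.79 CPM. The summed spermatogenic markers were at 23.3 ± 3.37 CPM in wild-type lines and at 27.3 ± 2.36 CPM in mutant lines (SD, n = 2). Most of that sum was Cyct, at 19.3 ± 3.73 and 22.9 ± 1.75 CPM. Cox7a1, known from heart and skeletal muscle, was at 4.30 to 8.21 CPM in the wild-type libraries and 5.32 to 8.19 in the mutant libraries, 8.16% to 15.9% of the Cox7a level per length. Of the muscle and heart markers, Tnni3 was at 3.10 to 8.99 CPM, Acta1 at 3.17 to 7.89 CPM and Myh6 at 1.84 to 4.07 CPM. The rest of that list in the table, Ckm, Actc1, Myh1 and Myh2 among them, had medians of 0 to 0.666 CPM. The summed list was at 15.9 ± 0.339 CPM in wild-type lines and 15.6 ± 3.61 CPM in mutant lines.

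Ndufa4l2, known to be induced by hypoxia, was by far the most variable member, with a highest value 9.64 times its lowest. It was at 31.6, 30.9 and 14.2 CPM in WT-1, 83.4, 30.4 and 14.6 in WT-2, 30.1, 38.5 and 43.3 in Mut-1, and 38.9, 17.8 and 8.65 in Mut-2. WT-2 replicate 1 stood alone at the top, and replicate 3 was the lowest of the line in WT-1, WT-2 and Mut-2 but the highest in Mut-1. Cox4i2, the Cox4 isoform also known to respond to low oxygen, was at 6.34 CPM in the same WT-2 library, against 1.45 to 3.66 CPM in the 11 others. In that library 16 of 19 glycolysis genes had their highest value of the 12 libraries, and so did 10 of the 78 members (12.8%). The protein genes of the mitochondrial genome had their lowest value there for 12 of 13 genes. They took 2.37% of normalized counts in that library, against 2.89% to 3.67% in the others. The shares of all genes highest or lowest in WT-2 replicate 1 are not given here, so these counts stand without a background. Whether oxygen or another condition of the culture or library went with these values was not tested.

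**Figure D3:**
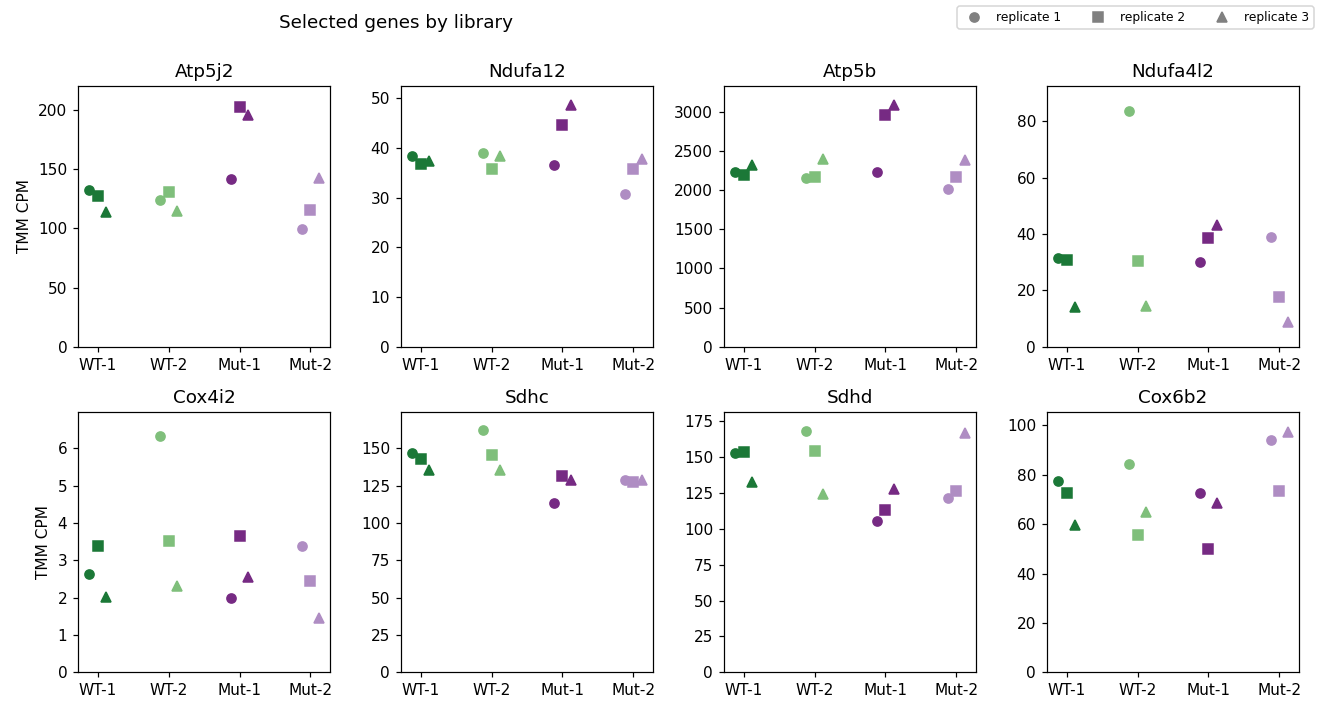
TMM-normalized CPM (y axis, from 0) of 8 genes in each library, by line on the x axis, with marker shape for the replicate number. Atp5j2, Ndufa12 and Atp5b are high in Mut-1 replicates 2 and 3, and Ndufa4l2 and Cox4i2 are high in WT-2 replicate 1.

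Complex V, the ATP synthase, held the most abundant members. Its 17 genes include Atp5s and Atp5sl, which were placed there by name. The 17 summed to 5614 ± 24.2 CPM in the wild-type lines and 5654 ± 348 CPM in the mutant lines, with 14 of 17 below 0 (median -0.08). Per length, Atp5b, the catalytic beta subunit, was the highest member at 557 CPM per kb. It was followed by Cox6a1 at 446, Cox8a at 443, Atp5a1, the alpha subunit, at 414 and Cox7c at 171 CPM per kb. The median member stood at 51.6 CPM per kb, against 8.15 for all genes at 5 CPM or more, and by complex the medians were 44.2 (I), 55.9 (II), 67.8 (III), 100.2 (IV) and 58.4 (V) CPM per kb. The annotated lengths enter these values, with a median of 1587 bases for the members and 4540 for all genes at that level. Atp5l, the lowest member at 2.25 CPM per kb, had 6443 bases of merged exons.

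Atp5a1 was at 1337 ± 37.5 CPM in the wild type and 1253 ± 9.44 in the mutants (-0.09 ± 0.10), while Atp5b, its partner in the catalytic head, was at 2250.3 ± 22.9 and 2453 ± 381 CPM (0.12 ± 0.12). The large SD of Atp5b came from Mut-1, with 2722 CPM, against 2183 in Mut-2. The c ring, which turns as protons pass, is built from 1 mature protein coded by 3 genes. Atp5g3 made up 46.4% of the c-ring level per length (median of 12 libraries), Atp5g2 43.2% and Atp5g1 10.5%. These shares depend on the annotated lengths, as the merged exons of Atp5g1 span 4912 bases, against 2181 in Atp5g3 and 1675 in Atp5g2. Without the division by length, the mean levels were 261.1 CPM (Atp5g3), 173.9 (Atp5g2) and 135.8 (Atp5g1). Their differences between genotypes were -0.10 ± 0.12, -0.05 ± 0.10 and -0.13 ± 0.15, none past the test.

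The lines were next compared in pairs, in 1 edgeR fit of the 12 libraries, whose p-values measure only the spread between libraries of a line. In Mut-1 against WT-1, 0 of 78 members were called (background 0.327%), 5 had an unadjusted p under 0.05 (background 11.3%) and the median log2 fold change was -0.11. In Mut-2 against WT-2, 0 were called (background 0.925%), 0 had an unadjusted p under 0.05 (background 15.1%) and the median was -0.02. In WT-2 against WT-1 the counts were 0 called (background 0.0181%) and 0 at an unadjusted p under 0.05 (background 7.61%), with a median of 0.01. In Mut-2 against Mut-1 they were 0 called (background 0.26%) and 7 at an unadjusted p under 0.05 (background 6.88%), with a median of 0.07. DESeq2 called 0 members in all 4 pairs as well (backgrounds, in the same order, 1.1%, 3.88%, 0.384% and 0.754%). At an unadjusted p under 0.05 it gave 6 (background 6.52%), 0 (9%), 0 (4.48%) and 7 (3.9%). The DESeq2 shares at an unadjusted p are over 31640 rows, low counts included, and those of edgeR over 16533 filtered genes. The members all passed the level minimum, so the DESeq2 shares are not a like background for them.

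These counts and medians rest on single libraries. In Mut-1 against WT-1, the median was 0.01 without Mut-1 replicate 1. At an unadjusted p under 0.05, edgeR gave 1 member without WT-1 replicate 1 (829 of 16937 genes). It gave 2 without WT-1 replicate 2 (827 of 16931 genes) and 14 without WT-1 replicate 3 (3930 of 16927 genes). The count over all genes thus moved with that of the members. WT-1 replicates 1 and 2, which were close to identical, enter this fit as separate libraries. In Mut-2 against Mut-1 the count of members was 2 without Mut-1 replicate 3 (615 of 16917 genes). It was 3 without Mut-2 replicate 3 (918 of 16981 genes), and the median was -0.05 without Mut-1 replicate 1.

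For many members the mutant lines gave opposite signs. Between Mut-1 with WT-1 and Mut-2 with WT-2, which share no library, 28 of 78 members were below 0 in both, 10 above 0 in both, 27 below and then above, and 13 above and then below. As shares, 35.9% were below 0 in both (27.3% of 16533 genes tested), 12.8% above 0 in both (30.2%) and 51.3% of opposite sign (42.5%). Across the 78 genes Pearson's r of the log2 fold changes was -0.35, and without Ndufa4l2, whose WT-2 level rests on 1 high library, it was -0.14, against 0.24 across all genes tested. Genes of a library share its depth and composition and are not independent replicates.

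Members in 2 chromosome stretches were described by position. Atp5j2, the f subunit of the membrane part of ATP synthase, lies near the end of chromosome 5 (145183698 to 145192062, minus strand). On the distal part of chromosome 10 lie Ndufa12, a complex I accessory subunit (94198720 to 94221443, plus strand), Ndufa4l2 (127514967 to 127517154, plus strand) and Atp5b (128083273 to 128090391, plus strand). These stretches were picked because earlier results of the same data showed their genes higher in Mut-1, so the values are a description. The 4 genes were among the 5 highest members in Mut-1 against WT-1, where their median was 0.41 (log2) against -0.11 for the other 74. Other members were as far below 0 in that pair and lie elsewhere, such as Uqcrh on chromosome 4 (-0.49) and Atp5sl on chromosome 7 (-0.46), and 4 of the 5 members at an unadjusted p under 0.05 were below 0. In Mut-2 against Mut-1, which shares the Mut-1 libraries, the 4 genes were the 4 lowest, with a median of -0.46 against 0.08, and in Mut-2 against WT-2 their median was -0.08.

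Atp5j2 was at 132, 127 and 114 CPM in WT-1, 124, 130.2 and 115 in WT-2, 141, 202 and 196 in Mut-1, and 99.7, 116 and 142 in Mut-2. All 3 Mut-1 libraries exceeded every wild-type library, and in Mut-2 only replicate 3 did. The estimate against WT-1 was 0.53 ± 0.16 (edgeR adjusted p = 0.249). In a fit with a term for the share of feeder markers it was 0.67 (edgeR adjusted p = 0.0286). Atp5j2 was the only member called for this pair in that fit, which called 68 genes higher and 8 lower of 16533. Atp5b was at 2233, 2199 and 2318 CPM in WT-1, 2151, 2166 and 2401 in WT-2, 2233, 2964 and 3085 in Mut-1, and 2012, 2173 and 2383 in Mut-2. Ndufa12 was at 38.3, 36.8 and 37.3 CPM in WT-1, 38.9, 35.7 and 38.3 in WT-2, 36.5, 44.5 and 48.5 in Mut-1, and 30.7, 35.8 and 37.7 in Mut-2. For both genes Mut-1 replicates 2 and 3 were the highest of the 12 libraries, and Mut-1 replicate 1 was within the range of the others.

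Ndufa13, Ndufb7 and Cox4i1 lie on chromosome 8, where WT-2 had been seen to run high. In WT-2 against WT-1 their log2 fold changes were -0.00 ± 0.11, 0.14 ± 0.17 and 0.08 ± 0.13, none past the test. None of the 77 members with a position lies on chromosome 14, the chromosome of Tinf2.

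The largest common movement of the members followed single libraries. The median over members of log2(CPM + 0.5), relative to each gene's mean over 12 libraries, was -0.31 in Mut-1 replicate 1 and between -0.08 and 0.11 in the 11 others. Mut-1 replicate 1 was the lowest library for 56 of 78 members, against 13.5% of the 11412 genes at 5 CPM or more. Summed, the members reached 9933 CPM there, against 10734 to 12908 CPM elsewhere. The highest libraries were Mut-2 replicate 3, for 24 members (background 12.7%), and Mut-1 replicate 3, for 21 (background 8.92%).

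The low library took all 5 complexes down together. Its median deviation was -0.28 for complex I, -0.24 for II, -0.38 for III, -0.21 for IV and -0.33 for V, and 25 of 34 complex I genes were lowest there. It also had the highest feeder share, 2.09%, and other gene groups were low in it: 43 of 77 mitochondrial ribosomal proteins and 34 of 82 cytosolic ribosomal proteins had their lowest value there. Protein genes of the mitochondrial genome did not share this, with 0 of 13 lowest in that library and a median deviation of -0.05. Whether feeder RNA, the culture or the library preparation went with the low values was not tested.

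**Figure D4:**
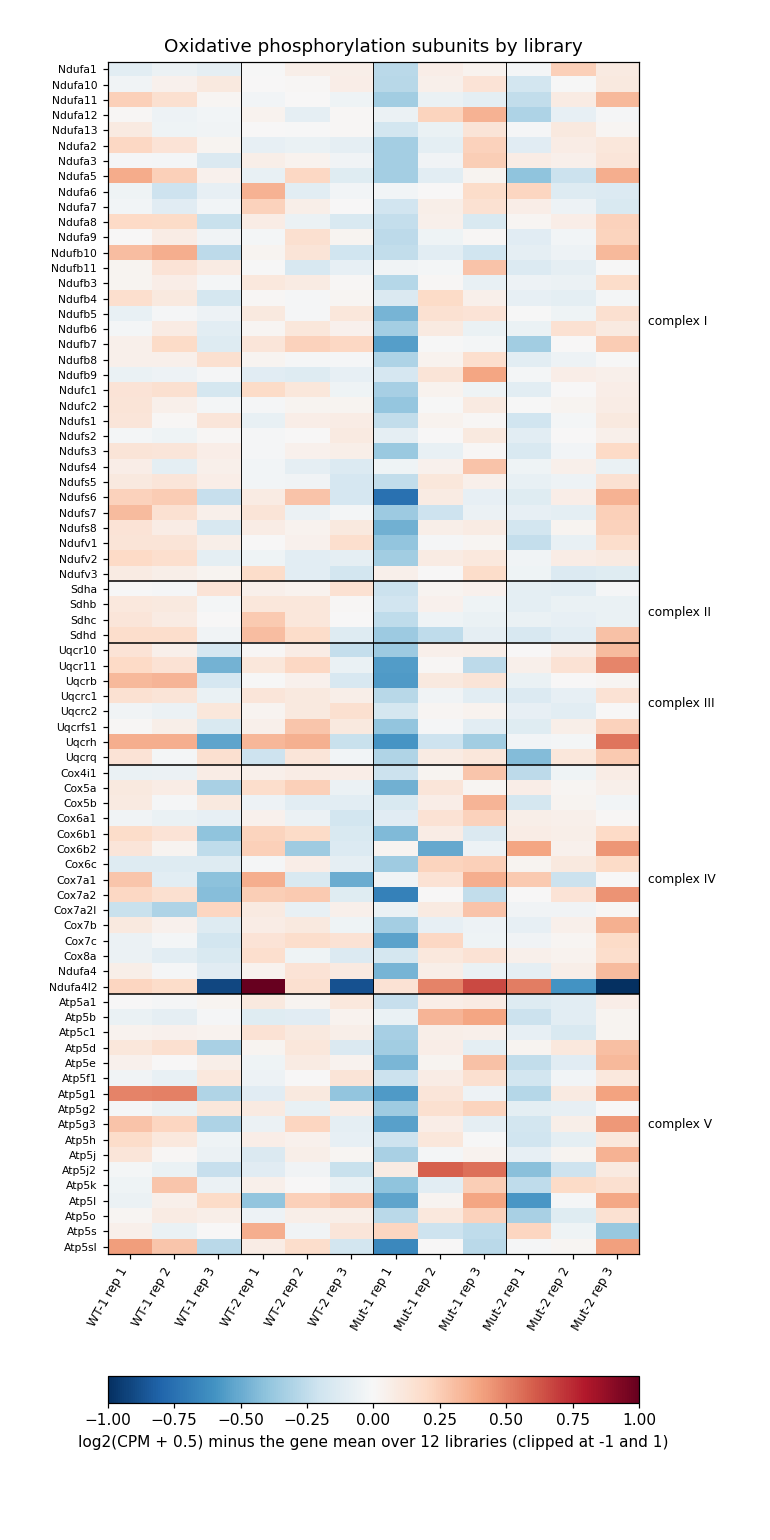
Heat map of log2(CPM + 0.5) minus the gene's mean over 12 libraries (colour, clipped at -1 and 1) for the 78 members (rows, by complex) in each library (columns, by line and replicate). The column of Mut-1 replicate 1 is blue for 73 of 78 genes, and Ndufa4l2 is the row with the widest range.

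Compared within a replicate number, the genotypes changed order. The median of the members in the mutants minus that in the wild type was -0.26 (log2) for replicate 1, -0.04 for replicate 2 and 0.11 for replicate 3. For complex II the same differences were -0.32, -0.15 and -0.05, below 0 in each. The feeder markers differed by 0.95, 0.54 and 0.02 in the same order. By pair of lines, the members differed by -0.40, -0.01 and 0.09 and the feeder markers by 1.27, 0.27 and -0.48 in Mut-1 minus WT-1. In Mut-2 minus WT-2 the members differed by -0.12, -0.06 and 0.14 and the feeder markers by 0.63, 0.80 and 0.52. A link between the feeder markers and the level of the members was not tested. Whether the numbers mark days or batches is not stated in the labels.

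Gene lists for the rest of the pathway gave similar small estimates. On line totals 0 genes of any list were called (edgeR, adjusted p under 0.05). Assembly factors of complex I were below 0 for 13 of 16 genes (median -0.12), those of complexes II and III for 7 of 10 (-0.10), of complex IV for 17 of 21 (-0.07) and of ATP synthase for 3 of 5 (-0.00). In these lists only Foxred1, a complex I assembly factor, had an unadjusted p under 0.05 (edgeR, background 13.1% of all genes). It was at 60.6 ± 1.33 CPM in the wild type and 48.7 ± 2.39 in the mutants (-0.32 ± 0.11; edgeR adjusted p = 0.297).

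Genes for electron carriers and coenzyme Q synthesis were below 0 for 13 of 18 (median -0.11). Cytochrome c itself, Cycs, was at 95.4 ± 3.25 and 82.8 ± 9.44 CPM (-0.20 ± 0.12; edgeR adjusted p = 0.499). Of 10 subunits and carriers that the name rule missed, 7 were below 0 (median -0.14). Among them the outer-membrane channels Vdac2 and Vdac3 had opposite estimates, 0.30 ± 0.10 and -0.27 ± 0.10, and neither was called (edgeR adjusted p = 0.280 and 0.319). In the tricarboxylic acid cycle 14 of 18 were below 0 (median -0.08), and Sucla2, a succinyl-CoA ligase subunit, had the smallest unadjusted p of that list, at 85.8 ± 1.57 and 118 ± 20.5 CPM (0.46 ± 0.13; edgeR adjusted p = 0.247).

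Mitochondrial ribosomal proteins were below 0 for 71 of 77 genes (median -0.14), with 1 lower and 2 higher at an unadjusted p under 0.05, and cytosolic ribosomal proteins for 34 of 82 (median 0.01). Regulators of mitochondrial biogenesis were below 0 for 15 of 17 tested (median -0.12). Among them Pprc1, a PGC-1-related coactivator, was at 202 ± 26.1 and 159.5 ± 12.96 CPM and Ppargc1b at 7.05 ± 2.996 and 4.36 ± 0.136 CPM, neither called (edgeR adjusted p = 0.319 and 0.378). Without the 3 libraries richest in feeder markers, 35 of 77 mitochondrial and 1 of 82 cytosolic ribosomal protein genes were below 0. The mitochondrial genome's own protein genes had estimates above 0 for 12 of 12 tested (median 0.19), with 0 at an unadjusted p under 0.05 (edgeR). Without WT-2 replicate 1, the library where they were lowest, 12 of 12 were above 0 with a median of 0.10.

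Glycolysis enzymes were below 0 for 18 of 19 genes, with a median of -0.17 and 7 at an unadjusted p under 0.05 (background 13.1%, or 3.88% in the lower direction). Without WT-2 replicate 1, the highest library for 16 of these 19 genes, 16 of 19 were below 0 with a median of -0.08 and 4 at an unadjusted p under 0.05. Pdk1, the kinase that holds pyruvate out of the tricarboxylic acid cycle, was at 148 ± 23.1 and 104.9 ± 6.99 CPM (-0.49 ± 0.13; edgeR adjusted p = 0.229), and Aldoc, an aldolase, at 49.2 ± 4.50 and 29.9 ± 2.60 CPM (-0.72 ± 0.13; edgeR adjusted p = 0.163). The median of this list was lower than that of the subunits, a difference that was not tested. Feeder markers summed to 10916 ± 170 CPM in wild-type lines and to 15269 ± 1856 CPM in mutant lines (SD, n = 2) and were above 0 for 34 of 34 genes, with a median of 0.57 and 32 at an unadjusted p under 0.05. Stem cell markers were below 0 for 14 of 17 (median -0.11). The part of culture composition in the small estimates of the subunits was not tested.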

How the data were processed

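RNA-seq of 12 libraries from 4 mouse embryonic stem cell lines was analysed. The deposited values are whole-number read counts per gene, not normalized. Build GRCm38 and the tools HTSeq 0.6.0, HISAT2 2.1.0, Bowtie2 2.2.3 and bcl2fastq come from the submitters' processing notes. What each tool did, the gene models and strandedness are not stated there, so reads of antisense or overlapping genes (Ndufb2 and Atp5o have overlapping or several loci) and of near-identical copies are uncertain. Ndufb2 lies under the level minimum.

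Counts were TMM-scaled in edgeR 4.0.16 (R 4.3.3). For the genotype, counts of a line's 3 libraries were summed, and 2 lines were compared with 2 by edgeR's quasi-likelihood test after filterByExpr, with Benjamini-Hochberg adjustment over all genes tested and calls at an adjusted p under 0.05. Pairs of lines were tested in 1 fit of the 12 libraries with 4 line groups, so their p-values measure only the spread between libraries that may be technical. A mean ± SD with n = 2 is over line totals, and ± after a log2 fold change is its SE. limma 3.58.1 and DESeq2 1.42.0 served as alternatives. The fits were tested on simulated data. Totals of 14766477 counts or more per library limit the precision mainly for the isoforms at under 1 CPM.

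Positions and exon lengths came from GENCODE M21 (GRCm38), where 29383 symbols matched by name and 187 by an older symbol, and 77 of the 78 members had a position. Ndufa4 and Ndufa4l2 were counted with complex IV. Cox7a2l, a supercomplex assembly factor related to Cox7a, was counted with IV, and Atp5s and Atp5sl with V by name. Atp5sl is named Dmac2 in GENCODE M21, a symbol on the list of complex I assembly factors, but it was not counted in that list. Promoters came from RefSeq. Members, gene lists, chromosome stretches and tests were chosen with earlier results of these data known. Genes named were the 8 lowest and 4 highest members on line totals, members whose genotypes do not overlap, members set by role (complex II, c ring, isoforms, core subunits), by position or by level per length, and at most 3 per list by smallest p. Other genes named for their values were chosen after these were seen.

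Deviations from the line mean were correlated between same-numbered libraries of 2 lines. The values were 0.194 to 0.621 in WT-1 with WT-2, 0.288 to 0.403 in WT-2 with Mut-1 and 0.115 to 0.695 in WT-2 with Mut-2. They were 0.139 to 0.492 in Mut-1 with Mut-2, -0.131 to 0.217 in WT-1 with Mut-1 and -0.288 to -0.104 in WT-1 with Mut-2. Only in WT-2 with Mut-1 did each library correlate best with its own number. That failed for replicate 1 in WT-1 with WT-2, replicate 3 in WT-2 with Mut-2, replicate 2 in Mut-1 with Mut-2, and every replicate in WT-1 with either mutant line.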

Additional observations from a re-analysis of the deposited data

Results flagged for a closer look

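The 6 libraries of each genotype were checked for every member named by rule and for the summed levels, 88 groups in all. In 8 of them the highest or lowest library stood further from the rest than Dixon's criterion allows, where chance alone picks out about 1 in 20 groups. Among the wild-type libraries, WT-2 replicate 1 was highest for Ndufa4l2 at 83.41 CPM (others 14.2 to 31.6), for Cox4i2 at 6.337 CPM (others 2.02 to 3.51) and for Cox8a at 307.3 CPM (others 246 to 265). Among the mutant libraries, Mut-2 replicate 3 was highest for Sdhd at 166.6 CPM (others 105 to 127), and Mut-1 replicate 1 was lowest for Sdhc at 113.2 CPM (others 128 to 131). The remaining 3 rest on few counts. Cox6a2 was at 1.177 CPM in WT-1 replicate 3 (others 0.0594 to 0.410), Cox7b2 at 0.3305 CPM in WT-2 replicate 3, and Cox8b at 0.05724 CPM in Mut-2 replicate 1, with the other mutant libraries at 0.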

How the results depend on the processing

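The genotype comparison called 0 members in the alternative runs. On line totals these were RLE scaling, no filter on low counts, DESeq2, chromosome 14 left out, and each library left out. On the 12 libraries they were limma with line as a random block, with and without the feeder share. The median of the members did depend on the choice. It was 0.05861 in limma on the 12 libraries with the feeder share as a covariate. On line totals it was 0.07677 without Mut-1 replicate 1 and Mut-2 replicates 1 and 2, an alternative added after seeing the data. With a library left out it ran from -0.1137 to 0.01506, the upper end without Mut-1 replicate 1.

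In Mut-1 against WT-1 the covariate gave 1 member call, Atp5j2, beside 68 higher and 8 lower of 16533 genes. With a library left out, the median of this pair ran from -0.175 (without Mut-1 replicate 3) to 0.01158 (without Mut-1 replicate 1). It was 0.0138 without the 3 libraries. The median of Mut-2 against WT-2 was 0.1596 with the covariate and ran from -0.09011 to 0.04789 with a library left out, that of WT-2 against WT-1 ran from -0.04236 to 0.03717, and that of Mut-2 against Mut-1 from -0.05064 (without Mut-1 replicate 1) to 0.1637 (without Mut-1 replicate 3). With the covariate, the median of Mut-2 against Mut-1 was 0.1709, with 60 of 78 members above 0 and 0 called. There 23 members had an unadjusted p under 0.05 (edgeR), 20 higher and 3 lower, beside 1626 of 16533 genes. Without the filter, Ndufa4l2 was the 1 member called in Mut-2 against WT-2 and the 1 called in WT-2 against WT-1. Mut-2 against Mut-1 had 2 member calls, Ndufa4l2 and Atp5j2. Over 31641 rows the same fits called 720 higher and 246 lower, 113 and 88, and 69 and 201, in that order. The WT-2 level of Ndufa4l2 rests on 1 high library, replicate 1. The cause was not tested.

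With the replicate number as a block, 0 members were called in any comparison, and the genotype median was -0.05754. The pairing of libraries by number changed no call of a member. Over all genes, the main fit on line totals called 0 for the genotype. On the 12 libraries the block called 257 higher and 62 lower, and limma with line as a random block 194 and 39 (39 and 2 with the feeder share). The block fit had no term for the line, and the within-line correlation in limma was -0.00251 (0.0635 with the feeder share). Both thus counted the libraries of a line nearly as independent samples, and their calls do not measure the spread between lines. On line totals, DESeq2 called 290 and 70, edgeR without the filter 62 and 15, and edgeR without Mut-1 replicate 3 88 and 8.

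The values of gene lists with libraries left out and the correlation without Ndufa4l2 were also added after seeing the data. With a level minimum of 1 CPM, 2 more genes entered and 0 were called. The depth limits Cox6a2, Cox7b2, Cox8b and Cox8c, with totals of 5 to 70 counts.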
